A study of Mus musculus with 6 samples.

Results

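The bone morphogenetic protein (BMP) axis of choroid endothelial cells (ECs) is described here by 10 genes, picked from the 22026 gene symbols listed in every isolation. They are the matrix protein gene Mgp, the receptor genes Eng, Acvrl1 and Bmpr2, the ligand genes Bmp4 and Bmp6, the inhibitory Smad genes Smad6 and Smad7, and the target genes Id1 and Id3. The 10 genes were chosen by symbol with their difference between P5 and P30 in view. The values that chose them are therefore those of the same 6 isolations, and their levels and differences are given as a description with no p.

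BMPs are secreted ligands that bring together type I and type II receptor kinases on the cell surface, which then phosphorylate the transcription factors Smad1, Smad5 and Smad9. These join Smad4 in the nucleus and turn on genes such as the Id genes, and they also turn on the inhibitory Smads, which dampen the pathway. In ECs the type I receptor Acvrl1 (ALK1) acts with the type II receptor Bmpr2 and the co-receptor endoglin (Eng), and loss of Eng or Acvrl1 in humans causes vascular malformations (hereditary haemorrhagic telangiectasia). Matrix Gla protein (Mgp) is a secreted, vitamin K-dependent protein that binds BMPs and is known for keeping calcium mineral out of the vessel wall.

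Choroid ECs line the vessels behind the retinal pigment epithelium (RPE), the cell layer that supports the photoreceptors. They were taken from mice at postnatal day 5 (P5) and postnatal day 30 (P30). The study's methods describe the P30 mice as 129/B6 males and females, and name no strain or sex for the P5 mice. An antibody to VE-Cadherin (Cdh5) was injected into the living mice, RPE and choroid were dissected together, and labelled cells were collected by flow cytometry. Each age had 3 independent isolations, each a pool of 14 eyes from 7 animals, so values of single animals cannot be given and p-values measure the spread between pools. RNA levels are given in FPKM, fragments per length of transcript, scaled here to an upper quartile of each library, a unit that allows levels of different genes to be set side by side. In pools of cells, fewer cells that express a gene and less RNA of it per cell cannot be told apart.

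A first view of the axis can be had from promoter sequence. RefSeq windows (250 bases before and 50 from the start of a transcript, build GRCm38.p6) were used for 6 of the 10 genes, Eng, Bmpr2, Bmp4, Bmp6, Smad6 and Id3, and their positions were found again by exact match in mm9, the build of the deposited data. Each window was searched on both strands for GGCGCC, a GC-rich Smad1 and Smad5 site, and for a BMP response element, in which GNCGNC is followed by GTCT with 5 bases between them. The lines below show the stretches that held a match, with the matched bases in capitals and positions counted from the transcript start.
Smad6, -120 to +15, chr9:63869852-63869986, minus strand: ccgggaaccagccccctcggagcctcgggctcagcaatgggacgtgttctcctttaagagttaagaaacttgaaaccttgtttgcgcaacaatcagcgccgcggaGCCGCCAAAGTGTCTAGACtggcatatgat
Bmp6, +3 to +32, chr13:38437587-38437616, plus strand: tcctggccGTCGCCCCGTCGTCTcttctcc
Bmpr2, -150 to -51, chr1:59820973-59821072, plus strand: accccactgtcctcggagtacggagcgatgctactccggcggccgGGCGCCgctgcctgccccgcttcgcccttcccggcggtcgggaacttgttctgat

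In the Smad6 window the match to the BMP response element lay at -15 to -1, and its last 4 bases opened the palindrome GTCTAGAC at -4 to +4, which was searched for only after the windows had been seen. In the Bmp6 window the match lay at +11 to +25, inside the gene as GENCODE draws it. In Bmpr2 the match was to GGCGCC, at -105 to -100. Among 32851 promoter windows of the same length, 219 (0.667%) held a match to the BMP response element, 3898 (11.9%) held GGCGCC and 70 (0.213%) held GTCTAGAC. Neither of the first pair of motifs was found in the windows of Eng, Id3 and Bmp4. Bases outside the windows were not searched, and a link between a match and the difference between ages was not tested. A match is a run of letters and not a measured binding site.

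Differences between ages are those of mean log2(FPKM + 1), P30 minus P5, a scale on which the change of low genes is understated. They were fitted with limma over the 12481 genes with a mean of at least 5 FPKM at either age, and a gene was called where the Benjamini-Hochberg adjusted p was under 0.01 with at least a 2-fold difference in mean FPKM + 1. The summed FPKM ran from 1432700 to 1734639, between 33.4% and 37.3% of genes were listed at 0, and no isolations held identical values. Read counts were not used here, so depth cannot be stated and counting error is not shown. The 10 endothelial markers summed to 17504 to 18599 FPKM at P5 and 22117 to 25634 at P30, and none was listed at 0. P5 replicate 3 held the lowest P5 value for all 10 genes of the axis, against 42.9% of the genes tested. P30 replicate 2 held the lowest P30 value for 6 of them (Eng, Acvrl1, Bmp6, Smad6, Smad7 and Id1), against 19.2% of the genes tested.

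At P30, Mgp had the highest mean level of the 10 genes, followed by Eng, Id1, Id3, Acvrl1, Smad6, Bmpr2, Smad7, Bmp6 and Bmp4. Neighbours in that order whose isolations overlapped were Eng with Id1, Id1 with Id3, Smad6 with Bmpr2, Bmpr2 with Smad7, and Smad7 with Bmp6. At P5 the order was Eng, Mgp, Id3, Id1, Acvrl1, Bmpr2, Smad7, Smad6, Bmp4 and Bmp6. There the isolations of Eng overlapped those of Mgp, as did those of Mgp and Id3, Id1 and Acvrl1, and Smad6 and Bmp4. Between the ages, by mean level, Mgp thus passed Eng, Id1 passed Id3, Smad6 passed Smad7 and Bmpr2, and Bmp6 passed Bmp4.

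**Figure D1:**
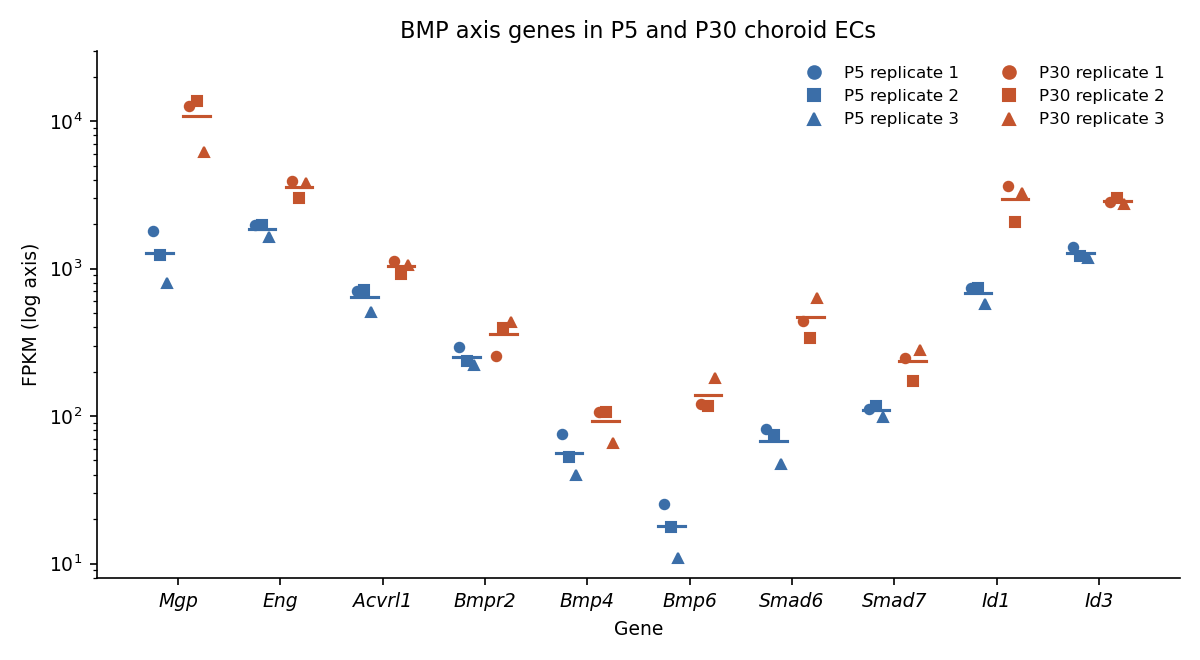
FPKM on a log axis of the 10 genes of the BMP axis in each isolation, with P5 in blue, P30 in orange, symbols for replicates and horizontal bars for the means of 3 isolations. Every P30 value lies above every P5 value for 8 genes, while the values of Bmpr2 and Bmp4 overlap.

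Mgp (chromosome 6, 136820957 to 136824326 of mm9, minus strand) had an FPKM of 1811, 1244 and 802 in P5 replicates 1, 2 and 3 and of 12711, 13592 and 6218 in P30 replicates 1, 2 and 3. The lowest P30 isolation, replicate 3, was still above the highest P5 isolation. The means of the ages were 1286 ± 506 and 10840.5 ± 4027 (SD, n = 3), a difference of 3.07 in log2(FPKM + 1) (SE 0.38, limma). By mean level Mgp stood at rank 100 of the 22026 genes at P5 and at rank 2 at P30. It took 0.123%, 0.0838% and 0.056% of the summed FPKM in the P5 isolations and 0.776%, 0.784% and 0.396% in the P30 isolations, again with no overlap.

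Mgp is known from vascular smooth muscle cells as well as from ECs, and markers of the mural cells around vessels were present in the pools. The 7 pericyte markers summed to 497 to 1765 FPKM at P5 and 1872 to 6290.4 at P30, with none listed at 0. The sum was lowest in P5 replicate 3 and highest in P30 replicate 2, the isolations where Mgp was lowest and highest. Within P30 the orders differed otherwise. The sum was lowest in P30 replicate 1, at 1872 with Mgp at 12711, and was 3857.5 in P30 replicate 3, with Mgp at 6218. In P5 replicate 1 the sum was 1765, with Mgp at 1811. By limma 0 of the 7 passed the limits of the test between ages, against 5.89% of all genes tested with P30 higher. At an unadjusted p under 0.05 (limma), 5 of the 7 were higher at P30, against 20.7% of all genes tested. For 4 of the 7 the ages did not overlap, with P30 above, against 22.0% of all genes tested. The pericyte receptor gene Pdgfrb had 226, 111 and 48.6 FPKM in the P5 isolations and 230.3, 993 and 491 in the P30 isolations. The ratio of Mgp to Pdgfrb was 8.02, 11.2 and 16.5 in the P5 isolations and 55.2, 13.7 and 12.7 in the P30 isolations, so the ages overlapped on this scale. Pdgfrb is 1 of the 7 pericyte markers, and the others were not set against Mgp in this way. They did not all move alike between the ages. Abcc9 had 199, 159 and 163 FPKM in the P5 isolations and 92.5, 259 and 167 in the P30 isolations. The 7 fibroblast markers were also higher in sum at P30. For 4 of them the ages did not overlap, with P30 above, against the same 22.0% of all genes tested. Dcn, the 1 of the 7 that passed the limits, had 107, 66.5 and 152 FPKM at P5 and 854, 1439 and 820 at P30. The part of pericytes or fibroblasts in the Mgp level was not tested.

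The 3 receptor genes had higher means at P30, by less than 2-fold each. Eng (chromosome 2, 32502115 to 32538189, plus strand), the endoglin co-receptor, had 1981, 1987 and 1627 FPKM in the P5 isolations and 3915, 3029 and 3833 in the P30 isolations. The ages did not overlap, and the means were 1865 ± 206 and 3592 ± 489 (SD, n = 3), a difference of 0.94 on the log2 scale (SE 0.14, limma). Eng thus lay just short of the 2-fold limit used for the tests, which it passed without P30 replicate 2, at 1.06. Acvrl1 (chromosome 15, 100958953 to 100975767, plus strand), the ALK1 receptor, had 709, 717 and 506 FPKM at P5 and 1126, 918 and 1058 at P30. Its isolations did not overlap either, with means of 644 ± 119.6 and 1034 ± 106 (SD, n = 3) and a difference of 0.70 (SE 0.16). Bmpr2 (chromosome 1, 59821481 to 59927703, plus strand), the type II receptor, had 292, 237 and 221 FPKM at P5 and 256, 396 and 436 at P30. P30 replicate 1 lay below P5 replicate 1, so the ages overlapped, and the difference of 0.51 (SE 0.21) came with means of 250.2 ± 37.4 and 362.5 ± 94.6 (SD, n = 3).

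The ligand genes had the lowest means of the axis, and they differed in how far apart the ages lay. Bmp4 (chromosome 14, 47003195 to 47010344, minus strand) had 76.0, 53.1 and 39.6 FPKM at P5 and 106, 106 and 65.2 at P30. P30 replicate 3 fell below P5 replicate 1, so the ages overlapped, with means of 56.2 ± 18.4 and 92.3 ± 23.5 (SD, n = 3) and a log2 difference of 0.72 (SE 0.28). Bmp6 (chromosome 13, 38436995 to 38592183, plus strand), whose window matched the letters of the response element shown above, had 25.2, 17.7 and 10.9 FPKM at P5 and 121, 117 and 180.2 at P30. The lowest P30 isolation was several times the highest P5 isolation. The means were 17.9 ± 7.13 and 139 ± 35.5 (SD, n = 3), a log2 difference of 2.94 (SE 0.30), and the rank of Bmp6 went from 9669 at P5 to 2612 at P30.

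Smad6 and Smad7 encode the inhibitory Smads, and Smad6 acts mainly on BMP receptors. Smad6 (chromosome 9, 63800953 to 63869866, minus strand), whose window matched the letters of the same element, had 82.3, 74.8 and 47.5 FPKM at P5 and 442, 339.7 and 629 at P30. All P30 isolations were far above the P5 isolations, with means of 68.2 ± 18.3 and 470.3 ± 147 (SD, n = 3) and a log2 difference of 2.76 (SE 0.27). Smad7 (chromosome 18, 75527183 to 75555589, plus strand), which acts on BMP and TGF-beta receptors alike, had 111, 117 and 99.1 FPKM at P5 and 248, 174 and 282 at P30. Its ages did not overlap, and the means of 109 ± 9.29 and 235 ± 55.6 (SD, n = 3) lay 1.07 apart on the log2 scale (SE 0.18). Smad7 was the gene of the axis nearest above the 2-fold limit. It left the limits, which include the adjusted p, when any isolation but P30 replicate 2 was left out. Its log2 difference was 0.92 without P30 replicate 3, and 1.0045 to 1.1257 without another of these isolations.

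Id1 and Id3 encode inhibitors of basic helix-loop-helix transcription factors and are among the best known direct BMP targets in ECs. Id1 (chromosome 2, 152561987 to 152563146, plus strand) had 736, 743 and 579 FPKM at P5 and 3609, 2069 and 3270.4 at P30. P30 replicate 2 was the lowest at that age and still well above every P5 isolation. The means were 686 ± 92.8 and 2983 ± 809 (SD, n = 3), a log2 difference of 2.09 (SE 0.22). Id3 (chromosome 4, 135699412 to 135701670, plus strand) had 1401, 1222 and 1186 FPKM at P5 and 2844, 3030.3 and 2737 at P30. Its P30 values lay close together and above all P5 values, with means of 1269.6 ± 116 and 2870.4 ± 148 (SD, n = 3) and a log2 difference of 1.18 (SE 0.11).

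The counts of these genes can be read beside those of all genes. All 10 genes of the axis were above the minimum of 5 FPKM at both ages. By the limits of the test 6 of the 10 genes (Mgp, Bmp6, Smad6, Smad7, Id1 and Id3) lay higher at P30 and 0 lay lower. Of all genes tested, 735 (5.89%) passed with the higher level at P30 and 726 (5.82%) with the higher level at P5. The lowest P30 isolation exceeded the highest P5 isolation for 8 of the 10 genes and for 2748 (22.0%) of the genes tested, while the reverse order held for 4123 (33.0%). The median log2 difference was 1.13 over the 10 genes and -0.10 over all genes tested. Nothing is read from these counts, because the genes were chosen with these differences in view.

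Within a single isolation, the ratio of a pair of genes does not depend on a factor by which the whole library was scaled. The ratio of Id1 to Id3 was 0.525, 0.608 and 0.488 at P5 and 1.27, 0.683 and 1.19 at P30, so Id1 exceeded Id3 only in P30 replicates 1 and 3. The ratio of Smad6 to Smad7 was 0.742, 0.637 and 0.479 at P5 and 1.78, 1.96 and 2.23 at P30, on either side of 1 without exception. The ratio of Bmp6 to Bmp4 was 0.331, 0.332 and 0.276 at P5 and 1.15, 1.1 and 2.77 at P30, also on either side of 1. Within each of the last pairs, the gene with the higher level at P5 had the lower level at P30. The ratio of Mgp to Eng went from 0.914, 0.626 and 0.493 to 3.25, 4.49 and 1.62. The ratio of Eng to its partner Acvrl1 shifted less, from between 2.77 and 3.22 at P5 to between 3.3 and 3.62 at P30, also without overlap. The ratio of the receptors Acvrl1 and Bmpr2 overlapped between ages, at 2.43, 3.02 and 2.29 and at 4.41, 2.32 and 2.43.

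**Figure D2:**
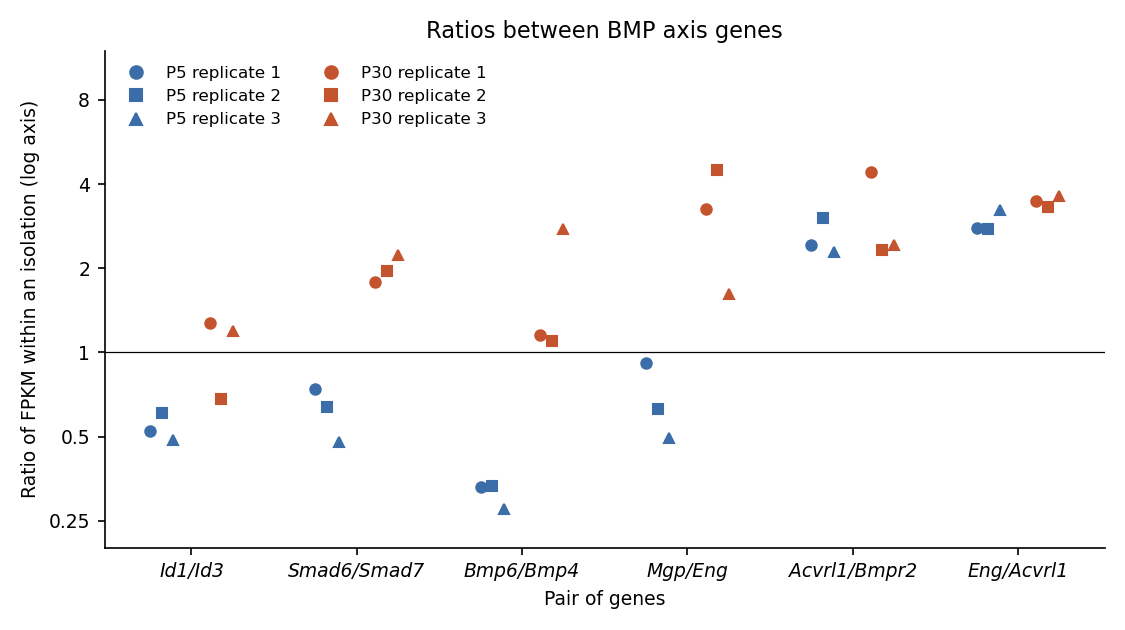
Ratio of FPKM between pairs of genes of the BMP axis within each isolation, on a log axis with a line at 1, with P5 in blue and P30 in orange. Smad6 over Smad7, and Bmp6 over Bmp4, lie below 1 in all P5 isolations and above 1 in all P30 isolations, while Acvrl1 over Bmpr2 overlaps between the ages.

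The levels of the axis were also set against a mean of EC markers, which did not all move alike. Of the 10 markers, 6 had every P30 isolation above every P5 isolation and 1 had every P30 isolation below. The latter was Cdh5, the target of the sorting antibody, with mean FPKM of 2971 at P5 and 1885 at P30. Emcn, among the 6, had 3002 and 5523. The mean is therefore not a count of ECs. The geometric mean of 10 endothelial markers was 1499, 1543 and 1450 FPKM in the P5 isolations and 2006, 1763 and 1724 in the P30 isolations. Its mean was 1497 ± 46.7 and 1831 ± 153 (SD, n = 3), and the exact two-sided permutation test gave p = 0.1, the smallest that 3 against 3 allows. As a percentage of this mean, 8 of the 10 genes had no overlap of the ages, with P30 above, and Bmpr2 and Bmp4 overlapped. The share of all genes without overlap was not counted on this scale, so nothing is read from that count. Mgp was 121%, 80.6% and 55.3% of it at P5 and 634%, 771% and 361% at P30. Smad6 was 5.49%, 4.85% and 3.28% at P5 and 22.0%, 19.3% and 36.5% at P30. Acvrl1 came closest to overlapping, at 47.3%, 46.4% and 34.9% at P5 and 56.2%, 52.1% and 61.4% at P30.

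Scaling every isolation to these endothelial markers moved the median difference of all genes by -0.28 on the log2 scale. The calls over all genes then split into 532 higher at P30 and 1334 higher at P5, in place of 735 and 726. All 10 genes of the axis were higher at P30 under this scaling, but they had been chosen with that difference in view. Mgp stood at 2.78, Bmp6 at 2.66 and Smad6 at 2.47. Id3 at 0.89 and Smad7 at 0.79 no longer reached the 2-fold limit there. With quantile normalization, which makes the distribution of values the same in all isolations, Eng stood at 0.43 and Id3 at 0.78. Median ratio scaling, by the median ratio over genes above 0 in every isolation, moved Eng the other way, to 1.03, past the limit.

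**Figure D3:**
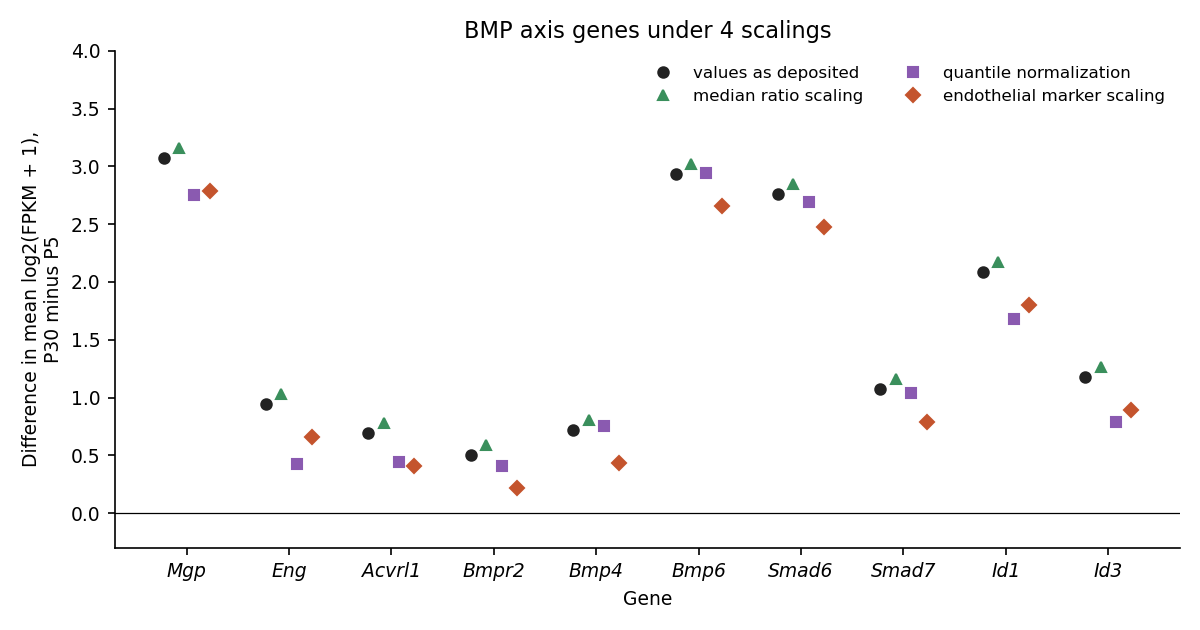
Difference in mean log2(FPKM + 1), P30 minus P5, of the 10 genes with the values as deposited and with 3 other scalings of the isolations. Every point lies above 0, Mgp, Bmp6, Smad6 and Id1 stay above 1 with each scaling, and Eng, Smad7 and Id3 lie on either side of 1 depending on the scaling.

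Markers of cells other than ECs differed between the ages as well. The 8 RPE markers summed to 66.5 to 152 FPKM at P5 and 499 to 3825 at P30. Of the 7 that were tested 5 rose (limma), against 5.89% of all genes tested. The RPE isomerase gene Rpe65 was listed at 0 in P5 replicates 2 and 3. The 6 photoreceptor markers summed to 2.21 to 7.25 FPKM at P5 and 41.0 to 349 at P30, with Rcvrn listed at 0 in all P5 isolations. Of the 5 that were tested 3 rose (limma), against the same 5.89%. The 5 melanocyte markers summed to 97.0 to 457 FPKM at P5 and 119.9 to 1251 at P30, with 0 past the limits of limma and 0 at an unadjusted p under 0.05. P30 replicate 3 had the lowest sum of all 3 lists among the P30 isolations, and P30 replicate 3 also had the lowest P30 level of Mgp, Bmp4 and Id3 and the highest of Bmpr2, Bmp6, Smad6 and Smad7.

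The 6 smooth muscle markers summed to 166 to 314 FPKM at P5 and 660.2 to 1889.9 at P30. Of the 5 that were tested 2 (Myh11 and Myl9) were higher at P30 by limma, against 5.89% of all genes tested. The 7 fibroblast markers summed to 725 to 1193 FPKM at P5 and 1782 to 4490.4 at P30. Of these 7 genes 1 (Dcn) was higher at P30, against the same 5.89%, and Dpt was listed at 0 in all P5 isolations. The sums of the pericyte, smooth muscle and fibroblast lists were highest in P30 replicate 2, where 6 genes of the axis had their lowest P30 level and Mgp, Bmp4 and Id3 their highest. The 6 haematopoietic markers summed to 498 to 754 FPKM at P5 and 313 to 793 at P30. Of these 6 genes 1 (Ptprc) was lower at P30, against 5.82% of all genes tested. The part of any of these cells in the levels of the axis was not tested.

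Marker lists of EC subtypes can be set beside these. Of all genes tested, 5.89% passed the limits with P30 higher. Of 5 arterial markers, Bmx and Sema3g rose, and the list summed to 923 to 1251 FPKM at P5 and 1443 to 1736 at P30. Of 4 venous and fenestrated EC markers Plvap, the gene of the fenestral diaphragm, rose, and its level, 4601 to 4854 FPKM at P5 and 8862 to 13816 at P30, made up most of the summed level of 5803 to 6066 at P5 and 9889 to 14854 at P30. The other markers of that list did not pass the limits, at log2 differences of -0.42 for Nr2f2, -0.14 for Ephb4 and -0.25 for Nrp2, whose P30 isolations all lay below those of P5. The 4 lymphatic EC markers summed to 362 to 496 FPKM at P5 and 517 to 645 at P30, with 0 past the limits of limma. At an unadjusted p under 0.05 (limma), 2 were higher at P30, against 20.7% of all genes tested. No gene of these 3 lists was listed at 0 in any isolation.

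**Figure D4:**
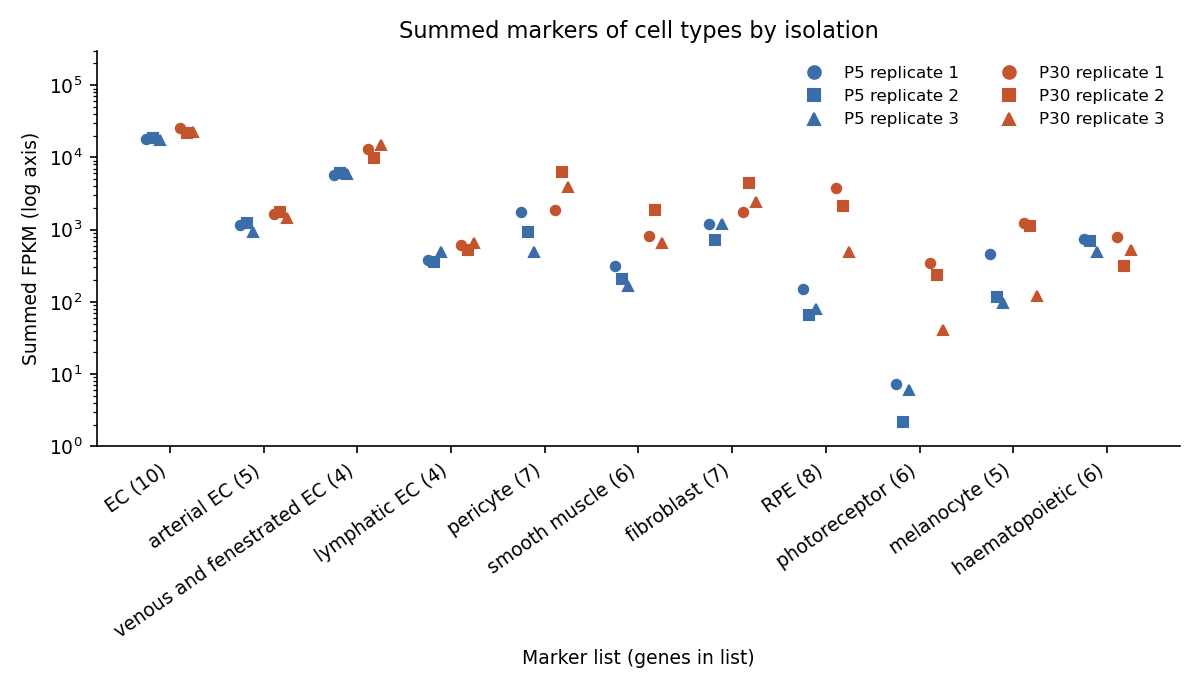
Summed FPKM on a log axis of the marker lists of ECs and of other cell types in each isolation, with the number of genes of each list in brackets. The RPE list reaches 3825 and the photoreceptor list 349 at P30, against at most 152 and 7.25 at P5, and the EC list lies between 17504 and 25634 in all 6 isolations.

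Beyond the 10 genes, 53 other genes of the BMP pathway were listed, of which 9 were at 0 in every isolation and 34 passed the minimum for the test. Of these 34 genes, 5 rose from P5 to P30, 1 fell and 28 did not pass the limits, against the 5.89% and 5.82% of all genes tested given above. The 5 that rose were the antagonist gene Nbl1 and the target genes Hey1, Hey2, Tmem100 and Atoh8, and the gene that fell was Fstl1. Without P5 replicate 2 the number that rose was 2, and without P5 replicate 3 it was 3. The median log2 difference was 0.64 over the 34 genes. Without overlap of the ages, P30 lay above for 16 of them and below for 6, against 22.0% and 33.0% of all genes tested. At an unadjusted p under 0.05, 14 of the 34 genes were higher and 6 lower at P30, against 20.7% and 28.8% of all genes tested. This list was also chosen with earlier results of these data known. Its counts and p-values are therefore a description, and nothing is read from them beside those of all genes.

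Of 11 other ligand genes, only Bmp2 and Bmp7 passed the minimum, and neither passed the limits, nor an unadjusted p under 0.05, by limma. Bmp2, the highest of them, had 77.9, 88.1 and 66.4 FPKM at P5 and 73.2, 79.1 and 67.0 at P30. Its ages overlapped almost fully (log2 difference -0.08, SE 0.14, adjusted p = 0.686 in limma), while Bmp6 went from well below Bmp2 to above it in every P30 isolation. Bmp10 was listed at 0 in every isolation and Gdf2 (BMP9) in all but P30 replicate 1, where it had 1.49 FPKM. These are the circulating ligands of Acvrl1, made mainly outside the eye, in heart and liver.

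Of 8 other receptor and co-receptor genes, 7 were tested and 0 passed the limits by limma, although 3 were higher and 2 lower at P30 at an unadjusted p under 0.05, a limit passed by 20.7% and 28.8% of all genes tested. Acvr1 (ALK2), the highest of them, had 181, 177 and 165 FPKM at P5 and 114, 163 and 126 at P30. Every P30 isolation was below every P5 isolation, but the difference of -0.39 (SE 0.14) did not pass (adjusted p = 0.0681, limma). Bmpr1a (ALK3), the broadly expressed type I receptor, had 24.5, 14.9 and 14.3 FPKM at P5 and 17.1, 80.3 and 46.9 at P30. P30 replicate 1 lay among the P5 values, so the ages overlapped (1.17, SE 0.52, adjusted p = 0.111, limma).

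Among 18 extracellular antagonists and modulators, 10 were tested, 1 rose and 1 fell, against 5.89% and 5.82% of all genes tested. Nbl1, a secreted BMP antagonist of the DAN family, had 31.0, 28.9 and 25.5 FPKM at P5 and 124, 102 and 129 at P30. The ages lay far apart relative to their spread, and Nbl1 rose by 2.01 on the log2 scale (SE 0.14, adjusted p = 0.000181, limma). Fstl1, a secreted follistatin-like protein that can bind BMP4, was the highest gene of this group, with 1079, 1016 and 987 FPKM at P5 and 311, 508 and 341 at P30. It fell by 1.44 (SE 0.18, adjusted p = 0.00121, limma). Crim1, a membrane protein that binds BMPs, had 151, 127 and 135 FPKM at P5 and 274, 299 and 242 at P30, and just missed the 2-fold limit at 0.97 (SE 0.12, adjusted p = 0.0011, limma). The classical antagonist Nog was low, at 1.14 to 2.90 FPKM at P5 and 4.16 to 16.1 at P30, and Grem1 and Chrd did not reach the minimum for the test.

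Of 8 signal transducers and their regulators, 0 passed the limits by limma, while 1 was higher and 3 were lower at P30 at an unadjusted p under 0.05, against the same 20.7% and 28.8% of all genes. Smad1 had 175, 199 and 235 FPKM at P5 and 99.5, 128 and 121 at P30, and Smad5 had 221, 217 and 224 at P5 and 98.6, 124 and 112 at P30. For these receptor-activated Smads every P30 isolation was below every P5 isolation. Their differences were -0.80 (SE 0.15, adjusted p = 0.00594, limma) and -0.98 (SE 0.11, adjusted p = 0.000773, limma), past the limit on p and short of the 2-fold limit. Smad9 (Smad8), the other member of the group, was lower in level, with 6.51, 5.63 and 3.77 FPKM at P5 and 24.7, 11.4 and 18.9 at P30 (1.58, SE 0.35, adjusted p = 0.0112, limma). Ppm1a, a phosphatase of Smads and by its mean over the 6 isolations the highest gene of the group, had 222, 229 and 193 FPKM at P5 and 254, 289 and 235 at P30 (0.27, SE 0.12, adjusted p = 0.103, limma). Of the activating Smad transcripts, Smad1 and Smad5 thus lay lower at P30, and Smad9, at a lower level, lay higher. These genes were named after their values were seen. Every P30 isolation lay below every P5 isolation for 33.0% of all genes tested and above for 22.0%. The inhibitory Smad6 and Smad7 transcripts lay higher at P30, but were chosen with that difference in view.

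Of 8 other target genes, 7 were tested and 4 rose, against 5.89% of all genes tested. The list was chosen with earlier results of these data known, so nothing is read from this count. Tmem100, a membrane protein of ECs induced through Acvrl1, had 46.8, 51.8 and 36.9 FPKM at P5 and 107, 259 and 191 at P30, and it rose by 1.94 (SE 0.31, adjusted p = 0.00313, limma). Atoh8, a transcription factor downstream of Acvrl1 in ECs, had 32.6, 28.5 and 21.4 FPKM at P5 and 109.7, 85.9 and 114 at P30, and it rose by 1.88 (SE 0.19, adjusted p = 0.000529, limma). The ages were well apart for both genes, although P30 replicate 1 lay closer to P5 for Tmem100. Tmem100 lost its call when any P5 isolation was left out, at adjusted p of 0.0125 to 0.0194 (limma).

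Hey1 and Hey2 are repressors that answer to Notch as well as to BMP. Hey1 had 123, 111 and 73.5 FPKM at P5 and 328, 261 and 196 at P30, and it rose by 1.34 (SE 0.24, adjusted p = 0.00543, limma). Hey2 had 17.4, 14.9 and 10.5 FPKM at P5 and 42.9, 36.3 and 47.1 at P30, and it rose by 1.52 (SE 0.22, adjusted p = 0.00225, limma). Both had their lowest P5 level in replicate 3, like the 10 genes of the axis. Hey1 lost its call when any isolation but P30 replicate 3 was left out, at adjusted p of 0.0113 to 0.0197, and Hey2 lost its call without P5 replicate 2, at 0.0129 (limma).

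The Id family did not move as a whole. Id2, the highest of the other targets, had 625, 679.7 and 671 FPKM at P5 and 464, 573 and 715 at P30. The ages overlapped (-0.19, SE 0.16, adjusted p = 0.350, limma), and the mean of Id2 was near that of Id1 at P5 and well below it at P30. Id4 had 128, 122 and 117 FPKM at P5 and 193, 194 and 331 at P30, which did not pass the limits (0.92, SE 0.21, adjusted p = 0.0129, limma).

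**Figure D5:**
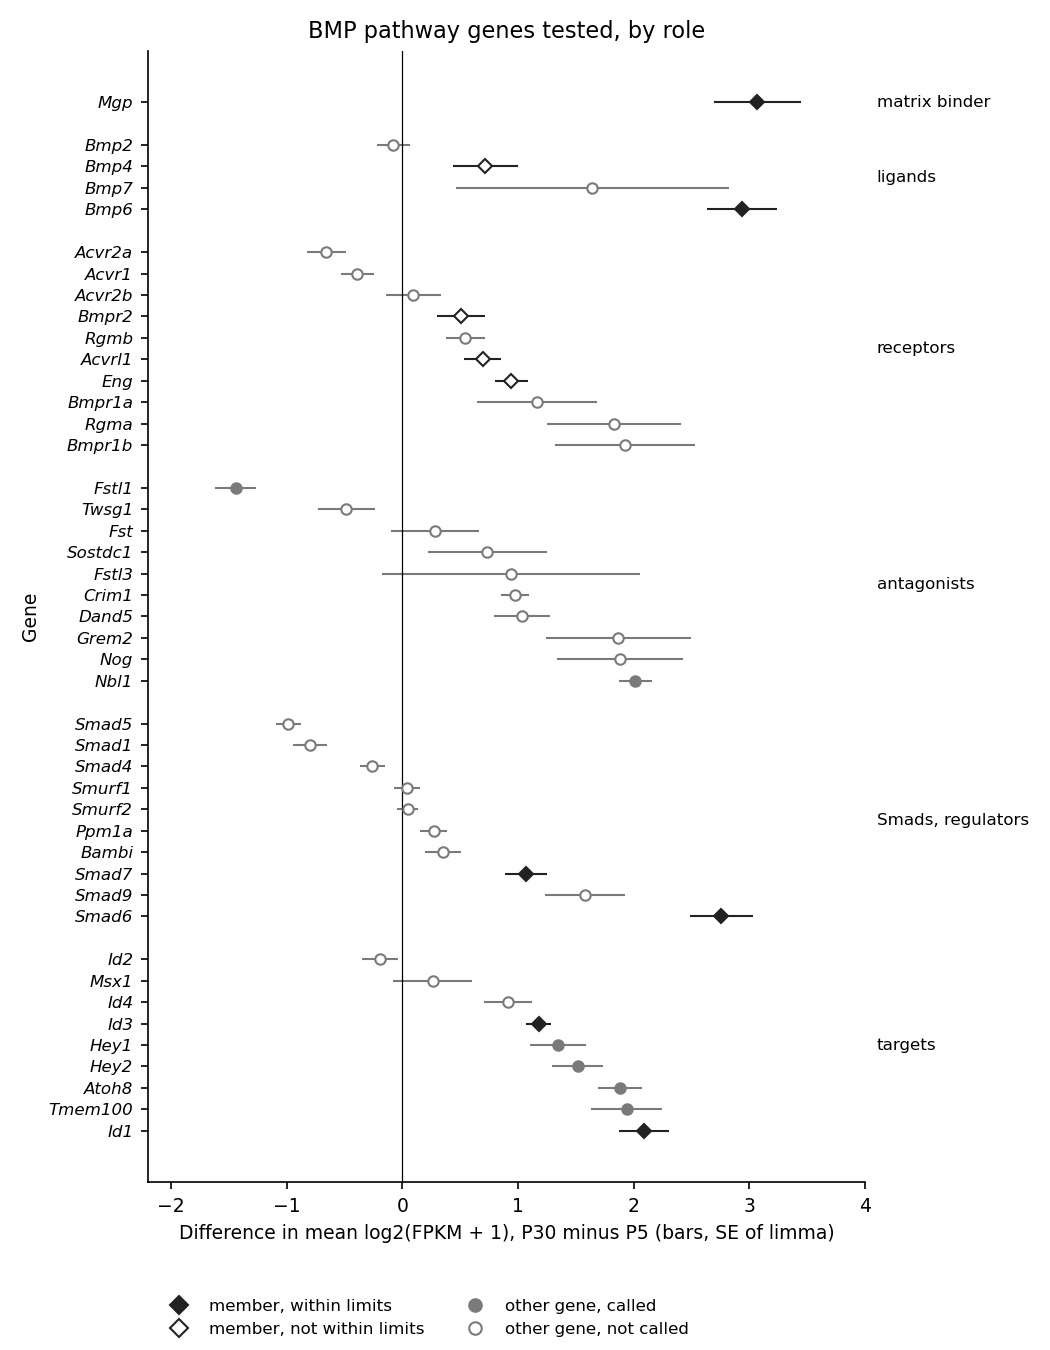
Difference in mean log2(FPKM + 1), P30 minus P5, with the SE of limma as bars, of the 10 genes of the BMP axis (black diamonds) and of the 34 other pathway genes tested (grey circles), grouped by role. Filled symbols are genes past the adjusted p of 0.01 and the 2-fold limit, and a reader should see Fstl1 at -1.44 as the only filled symbol to the left of 0.

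Mgp works only once its glutamate residues have been carboxylated by a vitamin K-dependent enzyme, so the genes of that step and of mineral control were described as well. Of 16 such genes 12 were tested, 4 rose (Gas6, Nt5e, Alpl and Spp1) and 0 fell by limma, against 5.89% and 5.82% of all genes tested. At an unadjusted p under 0.05, 8 were higher and 2 lower at P30, against 20.7% and 28.8% of all genes, and the median log2 difference was 0.55. This list too was chosen with earlier results of these data known, so its counts and p-values are a description. Of the 5 genes of carboxylation and the vitamin K cycle, 0 passed the limits by limma, and 2 were higher and 2 lower at P30 at an unadjusted p under 0.05. Among them the carboxylase gene Ggcx had 53.1, 54.3 and 44.0 FPKM at P5 and 47.9, 59.8 and 75.8 at P30, with overlapping ages. Calu, an inhibitor of the carboxylase and the highest of the group, had 918, 935 and 957 FPKM at P5 and 639.6, 829 and 670.0 at P30 (-0.40, SE 0.12, adjusted p = 0.0315, limma).

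Gas6, another vitamin K-dependent protein and a ligand of the Axl family of receptors, had 331, 282 and 255 FPKM at P5 and 741, 664 and 666 at P30. It rose by 1.26 (SE 0.12, adjusted p = 0.000408, limma), with no overlap of the ages, but by 0.97 and so short of the 2-fold limit when scaled to the endothelial markers. Nt5e (CD73), which makes adenosine at the cell surface and whose loss in humans calcifies arteries, had 4.57, 4.16 and 3.32 FPKM at P5 and 49.2, 44.7 and 65.8 at P30. It rose by 3.42 (SE 0.23, adjusted p = 0.00016, limma). Alpl, the phosphatase that removes the mineral inhibitor pyrophosphate, had 60.8, 38.7 and 22.1 FPKM at P5 and 182, 246 and 183 at P30, and it rose by 2.40 (SE 0.33, adjusted p = 0.00186, limma). Without P5 replicate 2 the adjusted p of Alpl was 0.0102 (limma).

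Spp1 (osteopontin), a secreted mineral-binding protein, had 21.7, 9.88 and 6.48 FPKM at P5 and 452, 2412 and 818 at P30. It rose by 6.29 (SE 0.63, adjusted p = 0.000506, limma), and like the pericyte and fibroblast lists it was highest in P30 replicate 2, which was not tested further.

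The genes whose pattern came nearest to that of Mgp were sought by the root mean square difference in log2(FPKM + 1) over the 6 isolations, after the mean of each gene had been subtracted. For Mgp they were Lrg1 at 0.237, Pim3 at 0.239, Atp2a3 at 0.253, Sgpp2 at 0.273 and Socs1 at 0.274. Lrg1, a secreted glycoprotein, had 59.1, 54.4 and 40.2 FPKM at P5 and 459.7, 495 and 303 at P30, with the lowest value of each age in replicate 3 as for Mgp. For Smad6 they were Bmp6 at 0.178, Hspb1 at 0.178 and Ccrl2 at 0.186, and for Bmp6 they were Clic5 at 0.169, Smad6 at 0.178 and Hopx at 0.195. Smad6 and Bmp6 were thus among the 3 nearest genes of each other.

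For Id1 the nearest genes were Fam57b at 0.0802, the BMP antagonist Nbl1 at 0.165 and Zap70 at 0.168. For Id3 they were Eepd1 at 0.0372, Grina at 0.055 and Atf4 at 0.0647. For Smad7 they were Impdh1 at 0.0556, 1810011O10Rik at 0.0665 and Dhrs3 at 0.0768. The difference between ages is part of this measure, and nothing is said of shared function.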

How the data were processed

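RNA libraries of sorted choroid ECs from P5 and P30 mice (3 isolations per age) were made with the TruSeq kit. The authors mapped reads to mm9 by TopHat, calculated FPKM with CuffLinks using GC and upper quartile normalization, and deposited 1 FPKM value per gene symbol and isolation. CASAVA 1.8.2 is named in the submitters' processing notes. The versions of TopHat and CuffLinks and the gene annotation are not given in the sources used here. Read counts were not used here, so depth is unknown and no counting interval is given. The fullest bin (0.05 in log2) of ratios between low values held 2.24% to 3.55% of genes, and whole reads were not recovered.

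The FPKM values were transformed to log2(FPKM + 1). Genes with a mean of at least 5 FPKM at either age went into a limma fit (version 3.58.1, R 4.3.3, lmFit and eBayes with trend, no block) of all 6 isolations. The limits, an adjusted p under 0.01 and 2-fold, follow the study's methods, whose own test needs counts. SEs are those of the limma coefficient. Tables were made with Python 3.11.15 (scipy 1.17.1, pandas 2.3.3, numpy 2.4.6). Gene positions are those of GENCODE for mm9, matched by symbol. Promoter windows on chromosome 18 were left out.

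Samples were grouped by the age in their labels. The 10 genes and the other lists were chosen with earlier results of these data known, so no p is given for the 10 genes. The p-values of the other lists are given as a description. Of the other pathway lists, genes past the limits and the highest gene of each role were named, and for Mgp 5 and for members with a log2 difference of 1 or more 3 genes of nearest pattern. The values of Gdf2, Bmp10, Bmpr1a, Crim1, Nog, Smad1, Smad5, Smad9, Id4 and Ggcx were named after they were seen. The melanocyte gene Si was matched as Pmel through older symbols. Alternatives were other pseudocounts and minimum levels, no trend, 3 other scalings, a replicate block and each isolation left out in turn.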

Additional observations from a re-analysis of the deposited data

How the results depend on the processing

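The 10 genes of the axis were chosen with their difference between ages in view, so nothing is read from their direction or counts here. All 10 were higher at P30 in each of 15 alternatives. Between 4 and 7 of them reached the limits, except with no filter on low values, where 0 did. The counts over all genes were in that case 242 with P30 higher and 296 with P5 higher. The pathway list then gave 2 and 0 in place of 5 and 1, and the vitamin K and mineralisation list gave 2 in place of 4. The cause was not tested. Scaling to the endothelial markers gave 1334 genes higher at P5 in all and 3 in the pathway list, where quantile normalization gave 2. With 1 isolation left out, 396 to 849 genes passed with P30 higher and 291 to 754 with P5 higher, and the pathway list gave 2 to 7 and 1 to 2. The lowest of these counts came without P5 replicate 2 or 3, and fewer isolations are part of that setting. Smad7 left the limits when any isolation but P30 replicate 2 was left out, and Eng came within them without that isolation. Hey1 lost its call in 7 alternatives and Tmem100 in 4, at adjusted p up to 0.0432 and 0.0325 (limma), and Gas6 lost its call when scaled to the endothelial markers, at 0.97, while Nbl1, Atoh8 and Nt5e kept theirs in all 15. No direction was reversed.

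Isolations with the same replicate number deviated from the means of their ages with correlations of -0.06, -0.09 and -0.03 across genes, so the replicate numbers were not taken as pairs. With a replicate block, 585 genes passed with P30 higher and 524 with P5 higher, and 5 of the 10 genes of the axis (without Smad7) reached the limits. Median ratio scaling gave 869 and 624.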
